A study of Saccharomyces cerevisiae with 8 samples.

Results

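Ribosome footprints per mRNA were compared gene by gene in yeast cells that carried control guide RNAs. The 4 libraries of these cells were used out of 8 in the study: 2 RIBO-seq libraries, which hold the mRNA fragments protected by ribosomes, and 2 RNA-seq libraries. By the protocol, footprints and RNA of a replicate were taken from 1 lysate. All 6016 gene rows of the table were taken, and 5660 had enough reads to be tested.

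Each ribosome on an mRNA shields a short stretch of it from nuclease, so footprints over a coding sequence count the ribosomes on it. Footprints set against the reads of the same mRNA give the ribosome density per mRNA, which reflects how often translation starts and how fast ribosomes move. In yeast this density is known to vary between genes, and short reading frames ahead of the coding sequence, introns kept in the mRNA and shifts of the reading frame are known ways of controlling it.

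The cells were haploid Saccharomyces cerevisiae of strain BY4741 in mid-log phase, grown in synthetic dextrose medium lacking leucine and uracil. The control cells carried an mCherry reporter gene with a UAG stop codon in place of a lysine codon, named mCherry(K14UAG), and a cassette expressing control guide RNAs. The targeted cells of the same strain and reporter expressed guide RNAs for pseudouridylation of that stop codon and of a lysine tRNA anticodon. Footprints came from RNase I digests and were selected at 25 to 33 nt. RNA-seq used an aliquot of the lysate, depleted of rRNA and broken into fragments of similar size. The labels do not say whether replicates 1 and 2 were separate cultures, so p-values rest on a spread that may be purely technical.

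Summed counts were 11849950 and 8080039 in the footprint libraries and 61908589 and 33911841 in the RNA libraries. Rows of Ty transposons, the retrotransposons of the yeast genome, held 23.2 and 21.2% of footprint counts and 72.4 and 69.8% of RNA counts. Of these 91 rows, 82 overlap another row. Whether a read was counted in more than 1 row is not stated in the sources used here. The shares are therefore of summed counts and may exceed the shares of reads. Replicates correlated across the 5660 tested genes with Pearson r of 0.993 for footprints and 0.997 for RNA on the log2 CPM scale (counts scaled to library size). Chi-square over degrees of freedom between replicates, computed to look for duplicate deposits of a library, was 5.01 for footprints and 17.7 for RNA. The markers of a MATa haploid were present: STE2, the receptor for alpha factor, had 6770 and 4496 footprint reads and 13044 and 7781 RNA reads. STE3, the receptor of MATalpha cells, had 27 and 33 footprint reads and 88 and 60 RNA reads. MET17, which is deleted in BY4741, had 0 footprint reads in both libraries and 1 RNA read in each.

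Ribosome density was spread widely around that of the typical gene. Of the 5660 genes tested, 2067 (36.5%) had more footprints than their mRNA level and 2191 (38.7%) had fewer, by edgeR's quasi-likelihood test with a Benjamini-Hochberg threshold of 0.05. Called genes at least 2-fold above numbered 322 (5.69%), and those at least 2-fold below numbered 865 (15.3%). The log2 ratio of footprints over mRNA had a median of -0.02, quartiles of -0.63 and 0.48, and 5th and 95th percentiles of -2.51 and 1.03. The low tail was the longer one, reaching -6.02 at the first percentile against 1.43 at the 99th. For 78.8% of the genes footprints and mRNA lay within 2-fold of each other. The median standard error (SE) of a gene was 0.09.

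Zero on this scale is set by TMM scaling, which takes the bulk of the genes as unchanged between the assays, so every value is relative to the other genes. Scaling by library size alone, where the transposon rows weigh fully, moved the median of all genes by 0.97 on the log2 scale. That shift moves all genes together, and it changes the split into higher and lower, which was then 4274 higher and 607 lower.

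Footprint level followed mRNA level across genes. On the log2 scale of normalised RPKM (reads per kilobase of coding sequence, scaled to a common TMM library size), the Pearson r was 0.90 and Spearman's rank correlation 0.916 over 5660 genes, which share libraries and are not replicates. Log2 ratios of replicate 1 and replicate 2, each from the footprint and RNA libraries of that number, correlated across genes with r of 0.965.

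**Figure D1:**
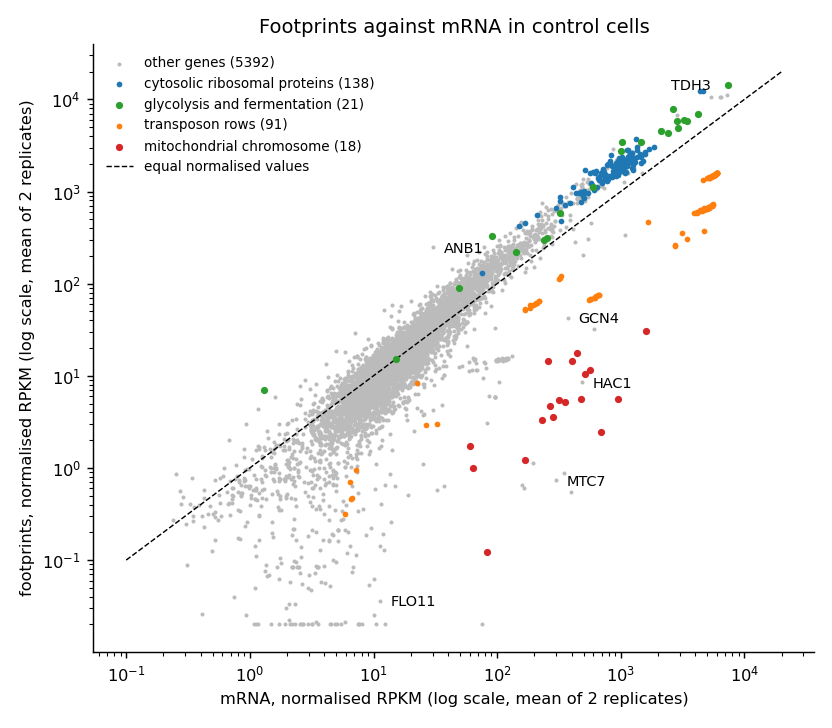
Each point is 1 of the 5660 tested genes, with its mRNA level on the x axis and its footprint level on the y axis, both as normalised RPKM on log scales and as means of 2 replicates. Points below 0.02 RPKM of footprints, including those at 0, are drawn at 0.02, and the dashed line marks equal values. Ribosomal protein genes and 20 of the 21 glycolysis and fermentation genes lie above the line (the exception is PYK2), the 91 transposon rows and the 18 mitochondrial rows below it.

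Density was lower in longer coding sequences. Genes with a coding sequence (CDS) under 300 nt had a median log2 ratio of 0.85 (205 genes), and the medians were 0.63 from 300 to under 600 nt (766 genes), 0.26 from 600 to under 1200 nt (1725 genes), -0.19 from 1200 to under 2400 nt (2060 genes), -0.60 from 2400 to under 4800 nt (771 genes) and -1.37 from 4800 nt on (133 genes). Called genes turned from mostly higher to mostly lower along the same series. Below 300 nt 145 were higher and 38 lower, and from 4800 nt on 1 was higher and 129 lower. Without transposon and mitochondrial rows the longest class held 92 genes, with 1 higher, 88 lower and a median of -1.02. Spearman's rank correlation of ratio with length was -0.51 in replicate 1 and -0.52 in replicate 2 over the same 5660 genes.

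The rank correlation was larger in size among well-annotated genes. Without transposon, mitochondrial, uncharacterized and overlapping rows, 5057 genes remained, their rank correlation was -0.594, and the 6 class medians ran 1.05, 0.70, 0.29, -0.15, -0.58 and -1.0 from short to long. The rank correlation was -0.38 with no filter on low counts and -0.75 among the 4153 genes with at least 100 reads in every library, a filter that itself removes genes with few footprints.

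**Figure D2:**
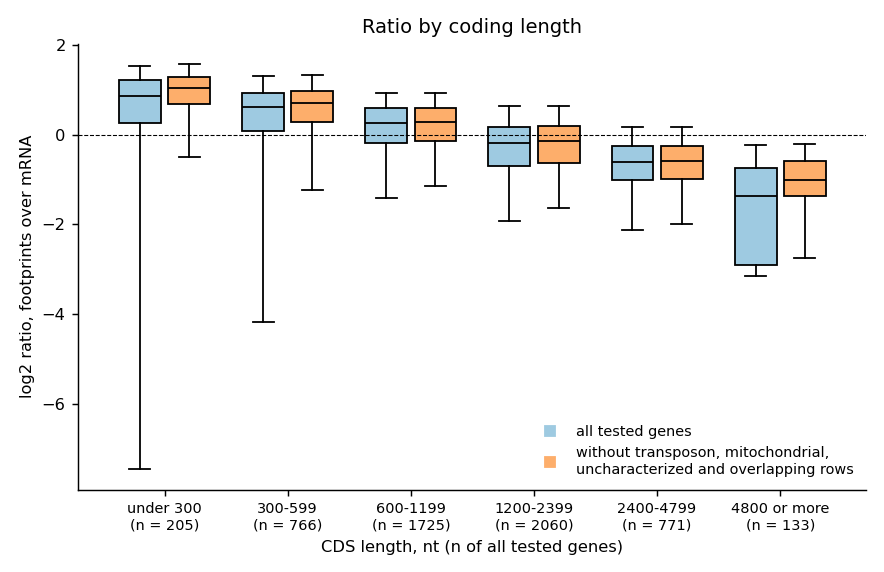
Log2 ratio of footprints over mRNA (y axis) by class of CDS length in nt (x axis), for all tested genes and for the 5057 genes left without transposon, mitochondrial, uncharacterized and overlapping rows. Boxes span the quartiles with the median as a line and whiskers reach the 5th and 95th percentiles; the median of all tested genes steps down from 0.85 in the shortest class to -1.37 in the longest.

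Exceptions stood at both ends of the length range. Among genes under 600 nt, 132 were called at least 2-fold below, and 85 of these are described as uncharacterized or hypothetical. Among genes of 2400 nt or more, 42 were called higher and only 2 of them by 2-fold or more, HEF3 and PMA2. The next in that class were GLN4, the glutaminyl-tRNA synthetase, at 0.62 ± 0.05 (SE), EFT1 and EFT2, near-identical copies of elongation factor 2, at 0.51 ± 0.07 and 0.50 ± 0.07, and KAP123, a nuclear importer of ribosomal proteins, at 0.49 ± 0.04. They were followed by UBA1, the ubiquitin-activating enzyme, at 0.48 ± 0.05, VMA1, of the vacuolar proton pump, at 0.45 ± 0.05, and CDC48, an ATPase that unfolds proteins, at 0.44 ± 0.05.

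Of the 10 longest coding sequences tested apart from transposons, all were called lower. REA1, a 14733-nt ATPase gene of ribosome assembly, had 14.5 and 12.9 RPKM of footprints and 27.4 and 25.1 RPKM of mRNA, a log2 ratio of -0.94 ± 0.07. TEL1, a DNA damage checkpoint kinase of 8364 nt, had 1.02 and 1.04 RPKM of footprints and 5.86 and 5.95 RPKM of mRNA, the lowest of the 10 at -2.52 ± 0.07. NUM1, which anchors dynein and mitochondria at the cell cortex (8247 nt), had 35.1 and 35.0 RPKM of footprints and 42.4 and 43.3 RPKM of mRNA, the highest at -0.29 ± 0.04. In each of the 3, both footprint values lay below both mRNA values. DYN1, the dynein heavy chain, was at -2.01 ± 0.06, and the Ras inhibitors IRA1 and IRA2 were at -1.37 ± 0.05 and -1.68 ± 0.07. Genes of near-equal length therefore differed by more than 2 log2 units.

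At the other end, most of the shortest characterized genes were high and most of the shortest uncharacterized ones low. Of the 10 characterized genes of 150 nt or less, 7 were called higher and 2 lower, with a median log2 ratio of 1.13. Of the 11 uncharacterized ones, 2 were called higher and 9 lower, with a median of -2.32. RPL41B, a ribosomal protein of the large subunit encoded in 78 nt, had 11397 and 13442 RPKM of footprints and 4652 and 4053 RPKM of mRNA. That gave 1.51 ± 0.09 with an edgeR adjusted p of 7.38e-07. The near-identical copy RPL41A was at 1.42 ± 0.08, and reads of the pair are hard to assign. MFA2, a precursor of the mating pheromone a-factor, had 2053 and 1709 RPKM of footprints and 860 and 780 RPKM of mRNA (1.20 ± 0.09), and MFA1 was at 1.13 ± 0.07. In all of these genes the footprint values lay above the mRNA values. The uncharacterized YER138W-A (105 nt) had 56 and 38 footprint reads and 2840 and 1531 RNA reads, a log2 ratio of -4.24 ± 0.10. Among all genes under 300 nt, 128 of 152 characterized and 17 of 53 uncharacterized ones were called higher, with medians of 1.05 and -1.30.

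Density was higher for more abundant mRNAs. To keep the measures apart, the ratio of each replicate was set against the mRNA of the other one. Genes were split into 5 equal groups (quintiles) by normalised mRNA RPKM, with bounds of 0.237 to 7.58, 7.59 to 12.4, 12.4 to 20.8, 20.9 to 47.9 and 47.9 to 7427 RPKM in the mean of both replicates. From the lowest quintile to the highest, the median log2 ratio in replicate 1 was -0.59, -0.28, -0.05, 0.23 and 0.63. In replicate 2 it was -0.58, -0.29, -0.06, 0.20 and 0.59. The medians stepped up at each quintile in both, and the rank correlations over 5660 genes were 0.48 and 0.45.

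Length and level each went with density when the other was held within a class, but length did so least at low mRNA levels. Within the 5 quintiles of mRNA level, the rank correlation of ratio with length was -0.21, -0.52, -0.63, -0.65 and -0.65 from low to high. In the lowest quintile, without transposon and mitochondrial rows, the first 4 class medians were -1.30, -0.59, -0.29 and -0.61 from short to long. Inside the classes under 300 nt and 300 to under 600 nt, the rank correlation with length was 0.04 and -0.04. It was -0.18 in both without transposon, mitochondrial, uncharacterized and overlapping rows. Within the 5 length classes under 4800 nt, the mean rank correlation of ratio with mRNA level lay between 0.37 and 0.60. In the class of 4800 nt or more it was -0.41 with the transposon rows, which are abundant and low in footprints, and 0.35 over 90 genes without transposon, mitochondrial, uncharacterized and overlapping rows. Length and mRNA level were only weakly related to each other, with a rank correlation of -0.14.

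**Figure D3:**
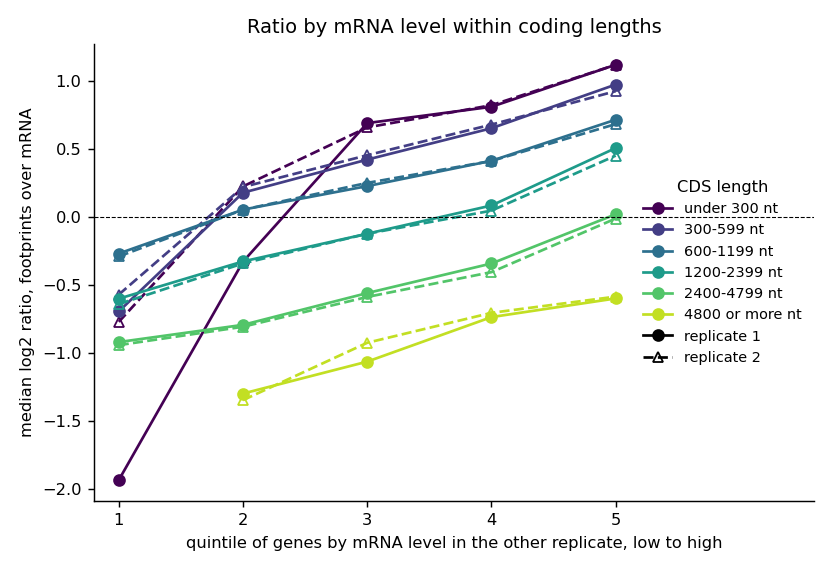
Median log2 ratio of footprints over mRNA (y axis) by quintile of mRNA level in the other replicate (x axis), for 6 classes of CDS length, without transposon and mitochondrial rows. Circles with solid lines are replicate 1, triangles with dashed lines replicate 2, and groups of under 10 genes are left out. At the top quintile the classes are ordered by length, from 1.12 under 300 nt to -0.60 in replicate 1 and -0.59 in replicate 2 from 4800 nt on, while at the lowest quintile the shortest class has the lowest median in replicate 1, with 21 genes.

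The gene lists were read against the shares of all tested genes, 36.5% called higher and 38.7% lower, and against the median of the group with the same length class and mRNA quintile, called here the matched median. That median uses the mean mRNA of both replicates, which also enters the ratio. The top quintile spans 47.9 to 7427 RPKM, so level is held only coarsely among abundant mRNAs. The proteins of the ribosome itself stood high without exception: 81 of 81 large-subunit and 57 of 57 small-subunit genes were called higher, with median log2 ratios of 0.96 and 1.03. RPL36A had 1636 and 1822 RPKM of footprints and 501 and 521 RPKM of mRNA, 1.76 ± 0.06, and RPS27B was at 1.57 ± 0.05. The lowest were RPP0, the stalk protein that binds elongation factors, with 1730 and 1665 RPKM of footprints and 1221 and 1273 RPKM of mRNA (0.45 ± 0.06), and RPS26A and RPS12, both at 0.51 ± 0.05. Even for RPP0 both footprint values lay above both mRNA values. These are short and abundant mRNAs, and 47 of 81 and 42 of 57 lay above their matched median, by a list median of only 0.05 and 0.12. Several exist as near-identical copies, whose separate values are uncertain.

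Elongation factors lay above the median of their length class and mRNA quintile. Their median mRNA was 912 RPKM, in a top quintile that starts at 47.9, and the part of level within it was not tested. All 11 were called higher (median 0.75), and 11 of 11 lay above their matched median, by a list median of 0.39. TEF2, elongation factor 1A, was at 0.72 ± 0.09, and its near-identical copy TEF1 at 0.75 ± 0.09. YEF3, the fungal elongation factor 3, was the lowest with 1301 and 1261 RPKM of footprints and 1056 and 1057 RPKM of mRNA (0.28 ± 0.07). Among 26 initiation factors 21 were called higher and 3 lower, with a median of 0.46. Only 15 of 26 lay above their matched median, by a list median of 0.01. SUI1, the start codon selection factor eIF1, was at 1.05 ± 0.05 and TIF5, eIF5, at 1.0 ± 0.06. The eIF4G scaffolds, encoded by long genes, were the lowest members, TIF4632 at -0.45 ± 0.07 and TIF4631 at -0.17 ± 0.05. Of 18 cytosolic tRNA synthetases 17 were called higher and 0 lower (median 0.51), and VAS1, for valine, did not pass at 0.06 ± 0.05. Of the synthetases 17 of 18 lay above their matched median, by a list median of only 0.05.

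Ribosome biogenesis factors, which process rRNA and assemble subunits, were mixed in calls but high for their length class and mRNA quintile. Of 53 genes 32 were called higher and 8 lower with a median of 0.22, and 47 of 53 lay above their matched median, by a list median of 0.26. NIP7 was at 1.07 ± 0.06 and IMP3 at 1.0 ± 0.09, while the long UTP20 and UTP10 were at -0.77 ± 0.05 and -0.54 ± 0.05. Of 71 nuclear genes for mitochondrial ribosomal proteins 51 were called higher and 2 lower (median 0.38). The 2 called lower were RSM22 at -0.66 ± 0.10 and MRP7 at -0.30 ± 0.08. Only 37 of 71 lay above their matched median, by a list median of 0.02.

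**Figure D4:**
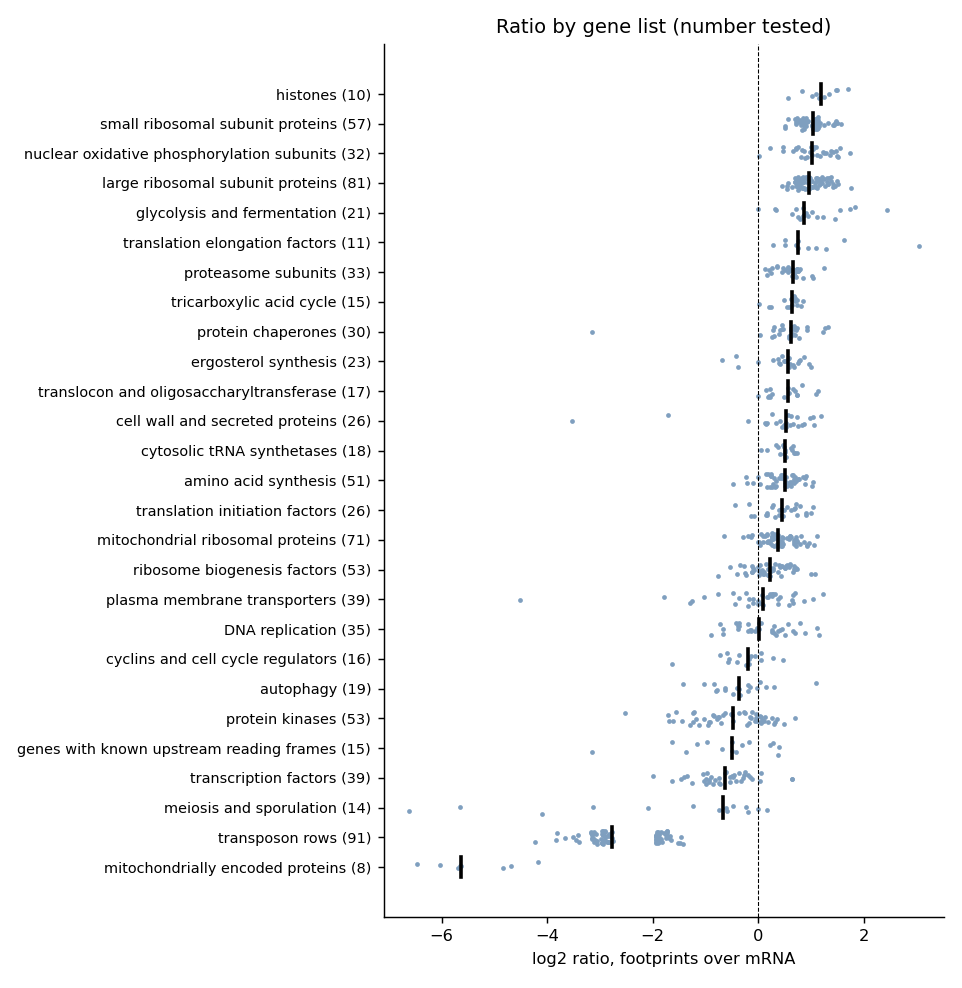
Log2 ratio of footprints over mRNA (x axis) for the tested members of 27 gene lists (y axis, number tested in parentheses), with 1 point per gene, jittered vertically, and a bar at the list median. Lists of ribosomal protein, energy and proteasome genes have medians from 0.38 to 1.03, and the lists of transcription factors, kinases and meiosis lie between -0.47 and -0.67.

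Glycolysis and fermentation genes were high for their length class and mRNA quintile. Their median mRNA was 1023 RPKM, in a top quintile that starts at 47.9, and the part of level within it was not tested. Of 21 genes 20 were called higher and 0 lower, with a median of 0.87 at a median length of 1458 nt, and 21 of 21 lay above their matched median, by a list median of 0.38. TDH3, the main glyceraldehyde-3-phosphate dehydrogenase, had 14607 and 14040 RPKM of footprints and 7413 and 7442 RPKM of mRNA (0.95 ± 0.09, edgeR adjusted p of 1.24e-05). PFK1, phosphofructokinase, was at 0.33 ± 0.05, and PYK2, the minor pyruvate kinase, did not pass with 16.4 and 14.0 RPKM of footprints and 14.9 and 15.8 RPKM of mRNA. In PYK2 the 2 kinds of library overlapped, and in TDH3 they did not.

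Nuclear genes for oxidative phosphorylation subunits had a median of 1.02, with 31 of 32 called higher and 0 lower. Above their matched median lay 22 of 32, by a list median of 0.12. CYC1, cytochrome c, had 148 and 143 RPKM of footprints and 44.7 and 41.9 RPKM of mRNA (1.75 ± 0.07), and COX7, of cytochrome oxidase, was at 1.54 ± 0.09. The exception was QCR6, of the cytochrome bc1 complex, with 67.7 and 70.0 RPKM of footprints and 70.8 and 65.2 RPKM of mRNA. Its libraries overlapped, and it lay 0.93 below its matched median. Among 15 genes of the tricarboxylic acid cycle 14 were called higher (median 0.64), led by IDH2 at 0.86 ± 0.05 and IDH1 at 0.82 ± 0.06, both of isocitrate dehydrogenase. KGD1, of ketoglutarate dehydrogenase, did not pass at 0.01 ± 0.04. Of the cycle genes 10 of 15 lay above their matched median, by a list median of 0.08.

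Protein turnover and chromatin genes were also mostly called higher. Above their matched median lay 17 of 33 proteasome subunits, 8 of 10 histones and 20 of 30 chaperones, by list medians of 0.02, 0.25 and 0.15. All 33 proteasome subunits were called higher with a median of 0.65. They ran from RPN1 at 0.13 ± 0.04 to RPT2, a base ATPase, at 1.24 ± 0.10. RPT2 had 73.4 and 75.8 RPKM of footprints and 34.9 and 27.6 RPKM of mRNA, so that the kinds did not overlap. All 10 histone genes were called higher, with a median of 1.19. HTB1, of histone H2B, had 757 and 744 RPKM of footprints and 231 and 230.2 RPKM of mRNA (1.70 ± 0.04), while HHO1, linker histone H1, was the lowest at 0.57 ± 0.06. Of 30 chaperones 28 were called higher and 1 lower (median 0.62). EGD1, of the nascent chain complex, was at 1.26 ± 0.05. The called lower one was SSA3, a stress-inducible Hsp70, with 13 and 32 footprint reads and 603 and 371 RNA reads (-3.14 ± 0.29).

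Amino acid synthesis enzymes were called higher in 45 of 51 cases and lower in 2, with a median of 0.50. Only 27 of 51 lay above their matched median, by a list median of 0.06. SER3, of serine synthesis, was at 1.03 ± 0.06 and GLN1, glutamine synthetase, at 1.02 ± 0.05. ARG8, of ornithine synthesis, was at -0.47 ± 0.17, and LYS2, a 4179-nt gene of lysine synthesis, at -0.23 ± 0.05. Of 23 ergosterol genes 19 were called higher and 3 lower (median 0.57), with ERG20 at 1.01 ± 0.05 and ERG7, lanosterol synthase, at -0.69 ± 0.06. Above their matched median lay 14 of 23, by a list median of 0.06.

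Genes of the secretory route and the cell surface were less uniform. Of 17 translocon and oligosaccharyltransferase subunits 16 were called higher (median 0.56), yet only 5 of 17 lay above their matched median, and the list median was 0.24 below it. STT3, the catalytic subunit of the transferase, did not pass with 92.7 and 89.5 RPKM of footprints and 90.4 and 92.1 RPKM of mRNA, which overlap. SEC61, the translocon channel, was at 0.15 ± 0.05. Cell wall and secreted proteins were called higher in 22 of 26 cases and lower in 3 (median 0.53), from PIR3 at 1.19 ± 0.20 to TIR4, a wall mannoprotein, with 11 and 3 footprint reads and 260 and 138 RNA reads (-3.53 ± 0.30). Only 14 of 26 lay above their matched median, by a list median of 0.03. Plasma membrane transporters had 15 of 39 called higher and 10 lower with a median of 0.09, which was -0.04 with a filter of 10 CPM. That filter moved the tested genes as a whole by a median of -0.13. Of the transporters 16 of 39 lay above their matched median, and the list median was 0.10 below it. The potassium transporters were lowest: TRK2 had 17 and 10 footprint reads and 998 and 524 RNA reads (-4.51 ± 0.17), and TRK1 was at -1.78 ± 0.07.

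Regulatory genes stood on the low side. Of 39 transcription factors 33 were called lower and 2 higher, with a median of -0.63 that became 0.35 when library size alone was the scaling, against 0.95 for all genes on that scale. Only 8 of 39 lay above their matched median, and the list median was 0.32 below it. GCR1, the activator of glycolysis genes, had 4.50 and 4.50 RPKM of footprints and 18.9 and 17.0 RPKM of mRNA (-2.0 ± 0.09), and ZAP1, the zinc regulator, was at -1.64 ± 0.13. The 2 called higher were CBF1, which binds centromeres and methionine gene promoters, at 0.64 ± 0.08, and INO4, a regulator of phospholipid genes, at 0.64 ± 0.19.

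Protein kinases were called lower in 31 of 53 cases and higher in 5, with a median of -0.47 (0.50 with library size alone). Above their matched median lay 16 of 53, and the list median was 0.19 below it. CDC28, the main cyclin-dependent kinase, had 28.6 and 26.1 RPKM of footprints and 17.0 and 16.9 RPKM of mRNA (0.70 ± 0.08), the highest of the list. HSL1, a morphogenesis checkpoint kinase, was at -1.71 ± 0.07, and TEL1 lay lowest. The cyclins and cell cycle regulators had 9 of 16 called lower and 1 higher, with a median of -0.20 (0.77 with library size alone). Above their matched median lay 6 of 16, and the list median was 0.23 below it. PCL1, a G1 cyclin partner of PHO85, was the 1 called higher at 0.48 ± 0.06, and CLB3, a mitotic cyclin, was at -0.72 ± 0.08.

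Autophagy genes were called lower in 11 of 19 cases and higher in 2, with a median of -0.37 (0.60 with library size alone). Their mRNAs are scarce, with a median of 7.02 RPKM, and 14 of 19 lay above their matched median, by a list median of 0.31. ATG8, the ubiquitin-like protein of the autophagosome membrane, was at 1.10 ± 0.15, and ATG5 and ATG12, which are joined to each other in another conjugate of autophagy, were at -1.42 ± 0.20 and -1.03 ± 0.20. DNA replication genes had 15 of 35 called higher and 11 lower. Their median of 0.02 changed sign with several settings (-0.11 with a filter of 10 CPM and -0.04 without footprint replicate 1), while 29 of 35 lay above their matched median. The filter of 10 CPM moved the tested genes as a whole by a median of -0.13. POL30, the sliding clamp, was at 1.15 ± 0.05 and ORC1, of the origin recognition complex, at -0.90 ± 0.09.

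Meiosis and sporulation genes, which vegetative haploids barely express, were tested in 14 of 22 cases, with 6 called lower and 0 higher (median -0.67, or 0.30 with library size alone). Above their matched median lay 5 of the 14, and the list median was 0.26 below it. IME2, the meiotic kinase, had 0 and 1 footprint reads and 169 and 103 RNA reads. A ratio of summed reads put it at -6.81 with a 95% counting interval from -12.1 to -4.32. RED1, of the chromosome axis, had 4 and 0 footprint reads and 331 and 176 RNA reads. In these bulk lysates a low level in all cells and a higher one in few cells cannot be told apart.

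Genes with known translational control were described one by one. GCN4, which encodes the activator of amino acid synthesis genes and whose mRNA carries several upstream reading frames, lies on chromosome 5 at 138918 to 139763, minus strand (build R64). It had 494 and 479 footprint reads and 12764 and 8277 RNA reads, or 36.0 and 48.9 RPKM of footprints and 356 and 387 RPKM of mRNA. Its mRNA was abundant and its footprints were 8.87-fold scarcer: the log2 ratio was -3.15 ± 0.11 and the edgeR adjusted p 6.48e-08. Among nuclear genes other than transposons with at least 100 reads in both footprint libraries, GCN4 had the lowest ratio. That filter was chosen after the values were seen, and it acts on footprint reads, which also enter the ratio. HAC1, at -5.88 with 82 and 82 footprint reads, fell below the limit.

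CPA1, the small subunit of the arginine-specific carbamoyl-phosphate synthase, showed opposite ratios in its own coding sequence and in the reading frame ahead of it. CPA1 (chromosome 15, 882899 to 884134, plus strand) had 13.9 and 14.8 RPKM of footprints and 34.8 and 39.4 RPKM of mRNA, a log2 ratio of -1.37 ± 0.08 with an edgeR adjusted p of 9.28e-07. YOR302W, the 78-nt upstream frame of CPA1 known to encode the arginine attenuator peptide, lies at 882765 to 882842 on the same strand, with 56 nt between the frames. It had 161 and 97 footprint reads and 181 and 87 RNA reads, or 127 and 107 RPKM of footprints and 54.8 and 44.2 RPKM of mRNA. Its log2 ratio was 1.23 ± 0.16 with an edgeR adjusted p of 1.06e-04. Footprints exceeded mRNA in both replicates over the upstream frame and fell short in both over CPA1. Genes under 300 nt in the top mRNA quintile, where YOR302W falls, had a median of 1.13, so its ratio was near theirs. CPA1 lay 1.43 below its matched median. YOR302W is listed as uncharacterized in the table, is among the 10 shortest rows tested, and was singled out after its values were seen.

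HAC1, the transcription factor of the unfolded protein response, has an mRNA whose retained intron is known to hold back translation. On chromosome 6 (75179 to 76147, plus strand) it had 7.05 and 9.88 RPKM of footprints and 468 and 507 RPKM of mRNA, a log2 ratio of -5.88 ± 0.11 with an edgeR adjusted p of 3.52e-09. The mRNA level was near that of a ribosomal protein such as RPL36A, and the footprints were 58.9-fold lower on the normalised scale. CLN3, the first G1 cyclin, whose mRNA also holds an upstream frame, had 8.31 and 8.13 RPKM of footprints and 25.9 and 25.3 RPKM of mRNA (-1.64 ± 0.07, edgeR adjusted p of 1.12e-07). In HAC1 and CLN3 alike, both footprint values lay below both mRNA values.

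Over the list of 15 genes with known upstream frames, 10 were called lower and 3 higher, with a median of -0.49 (0.48 with library size alone). Only 3 of 15 lay above their matched median. Besides GCN4, CLN3 and CPA1, the lower ones included PPR1, the regulator of uracil synthesis genes, at -1.16, and HOL1, a polyamine transporter, at -0.97. LEU4, of leucine synthesis, SCO1, of cytochrome oxidase assembly, and DCD1, dCMP deaminase, were called higher at 0.29, 0.40 and 0.37. ASH1, whose mRNA is kept silent on its way to the daughter cell, was at -0.31 ± 0.06 with 28.5 and 26.7 RPKM of footprints and 34.8 and 33.9 RPKM of mRNA. It was at 0.66 with library size alone.

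The genes read with a programmed frameshift did not stand apart. OAZ1, the antizyme that controls polyamines, had 57 and 58 footprint reads and 197 and 157 RNA reads (-0.36 ± 0.22) and was not called, but with the replicate as a block it was, with an edgeR adjusted p of 0.0458. EST3, of telomerase, was called at 0.29 ± 0.11 with an edgeR adjusted p of 0.0381, and lost the call whichever library was left out. ABP140, an actin-binding tRNA methyltransferase, was at 0.18 ± 0.05.

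**Figure D5:**
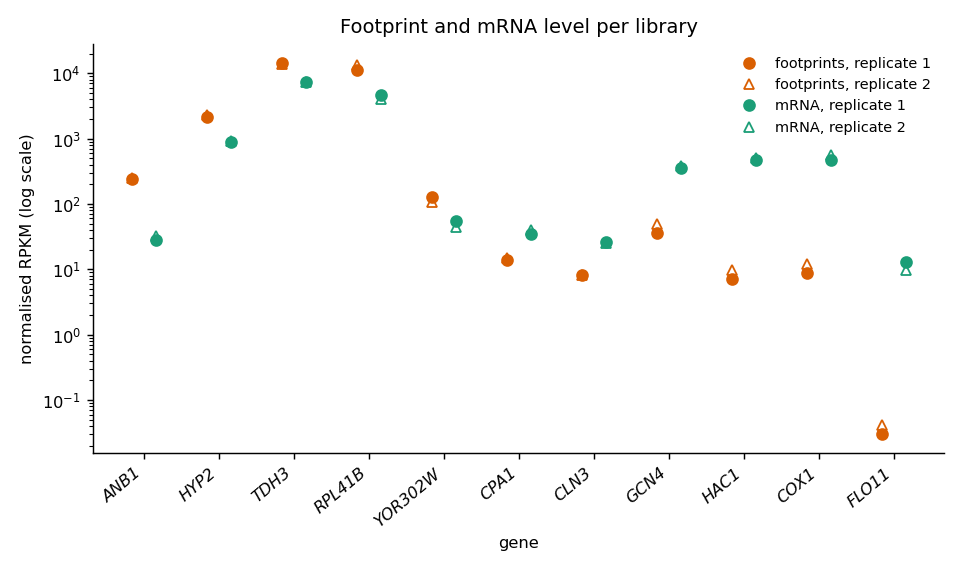
Normalised RPKM on a log scale (y axis) of footprints (left in each pair, orange) and mRNA (right, green) for 11 genes (x axis), with replicate 1 as filled circles and replicate 2 as open triangles. ANB1, HYP2, TDH3, RPL41B and YOR302W have footprints above mRNA in both replicates, and CPA1, CLN3, GCN4, HAC1, COX1 and FLO11 below.

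The highest ratio among the tested genes belonged to ANB1, the form of eIF5A known to be made in low oxygen. ANB1 (chromosome 10, 524908 to 525381, minus strand) had 1875 and 1394 footprint reads and 570 and 386 RNA reads, or 244 and 254 RPKM of footprints and 28.4 and 32.2 RPKM of mRNA. Its log2 ratio was 3.05 ± 0.07, or 8.27-fold, with an edgeR adjusted p of 1.13e-08. HYP2, the main form of eIF5A, had 2178 and 2270 RPKM of footprints and 897 and 927 RPKM of mRNA, a log2 ratio of 1.29 ± 0.05. The footprints counted for the pair thus differed less than their mRNAs. The rule for reads that match both genes is not given, and its part in the ratio of ANB1 was not tested.

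Some other minor copies of gene pairs had higher ratios than the major copy, which was noticed after the values were seen. PDC6 and PDC5, pyruvate decarboxylases, were at 2.43 ± 0.19 and 1.84 ± 0.07, against 0.71 ± 0.09 for the major form PDC1. PDC6 had 6.05 and 7.86 RPKM of footprints and 1.14 and 1.45 RPKM of mRNA. PDC1 had 6938 and 6956 RPKM of footprints and 4101 and 4387 RPKM of mRNA. HEF3, the second gene for elongation factor 3, had 6.98 and 8.68 RPKM of footprints and 2.17 and 2.93 RPKM of mRNA (1.63 ± 0.16), above YEF3. PMA2, the second plasma membrane proton pump, had 91.4 and 95.1 RPKM of footprints and 38.6 and 41.3 RPKM of mRNA (1.22 ± 0.05). PMA1, the main pump, had 1635 and 1537 RPKM of footprints and 1498 and 1481 RPKM of mRNA (0.09 ± 0.07) and was not called. With the replicate as a block it was, at the same ratio and an edgeR adjusted p of 0.00197. PYK2 and SSA3 had no such excess. TIF4632, with less mRNA than TIF4631 (means of 22.5 and 79.3 RPKM), had the lower ratio of that pair, -0.45 against -0.17. Gene pairs were not surveyed as a whole. How reads that match both copies were assigned is not given in the sources used here, and their part in these ratios was not tested.

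The other genes of the top 12 lay between 1.68 and 2.05. APS1, a small subunit of a clathrin adaptor, had 57.2 and 61.4 RPKM of footprints and 15.0 and 13.3 RPKM of mRNA (2.05 ± 0.10). EMI1 was at 2.02 ± 0.12 and overlaps GRX2, a glutaredoxin gene on the opposite strand. The reads of EMI1 may be shared if strand was not used. YNK1, nucleoside diphosphate kinase, was at 1.85 ± 0.08, TDH1, a minor glyceraldehyde-3-phosphate dehydrogenase, at 1.75 ± 0.07, and YPD1, of the osmosensing relay, at 1.68 ± 0.09. HOR7, a small membrane protein gene, was at 1.73 ± 0.18 with 2297 and 3442 RPKM of footprints and 741 and 991 RPKM of mRNA. TOM7, of the mitochondrial import pore, was at 1.68 ± 0.07. Apart from PDC5 and TDH1 these top genes had coding sequences under 600 nt.

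The smallest ratios came from mRNA-like reads with hardly any footprint, down to -11.3 over all tested genes. Among called genes of at least 10 CPM on average, transposon rows left out, the smallest was AI5_BETA at -9.59 ± 0.28. This intron-encoded mitochondrial row had 0 and 3 footprint reads and 3406 and 2390 RNA reads. FLO11, a flocculation and adhesion protein gene on chromosome 9 (389572 to 393675, minus strand), had 2 and 2 footprint reads and 2224 and 1017 RNA reads. Its log2 ratio of summed normalised reads was -8.38 with a 95% counting interval from -10.3 to -7.02. DAN4, a wall mannoprotein gene of anaerobic growth, had 1 and 1 footprint reads and 900 and 491 RNA reads, at -8.16 with an interval from -11.2 to -6.30. FLO11 and DAN4 were both called lower, and with so few reads the size of the ratio is known only within those intervals, which cover counting error only.

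Several other rows at this end lie next to or over another transcribed unit. MTC7 (420 nt) had 3 and 5 footprint reads and 5425 and 3133 RNA reads, and it starts 29 nt after the end of HYP2 on the same strand. YCR024C-B, uncharacterized, had 2 and 2 footprint reads and 4476 and 2633 RNA reads, and it starts 79 nt after PMP1, a regulator of the proton pump. YLR285C-A, uncharacterized, had 2 and 3 footprint reads and 1537 and 755 RNA reads, and it starts 109 nt after CTS1, the endochitinase gene. PMP1 itself was at 1.13 ± 0.06. YNL042W-B, YOL013W-A and YOR072W-B overlap the noncoding genes YNCN0009W, YNCO0011W and SUF11. The part of reads from the neighbouring unit was not tested.

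Uncharacterized and overlapping rows were frequent in the low tail. Of 401 uncharacterized rows tested 88 were called higher and 196 lower, with a median of -0.34, against -0.005 for the 5259 others. Rows that overlap another row, transposons included, had a median of -1.88, with 148 of 203 called lower. Of the 143 genes called at least 16-fold below, 53 were uncharacterized, 28 overlapped another row or a noncoding gene and 18 were mitochondrial. These groups share rows.

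All 18 tested rows of the mitochondrial chromosome were called lower, with a median of -5.95. Mitochondrial mRNAs are translated inside the organelle by its own ribosomes. COX1, of cytochrome oxidase, had 232 and 223 footprint reads and 31979 and 22553 RNA reads (-5.64 ± 0.13). OLI1, of the ATP synthase, had 29.6 and 32.2 RPKM of footprints and 1502 and 1687 RPKM of mRNA (-5.70 ± 0.09). COX3 was the highest of the 8 protein genes at -4.17 ± 0.12 and ATP8 the lowest at -6.46 ± 0.16. The intron-encoded AI2, AI1 and AI3, of which the rows overlap COX1, were at -8.15 ± 0.14, -7.44 ± 0.19 and -7.14 ± 0.15. Fewer ribosomes on these mRNAs and a lower recovery of mitochondrial ribosomes cannot be told apart here.

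The 91 transposon rows were all called lower (median -2.78). Ty elements encode a Gag protein and, by a frameshift, a longer Gag-Pol protein from the same RNA. The 45 Gag rows had a median of -1.90 and the 46 Gag-Pol rows one of -2.96. Many of the rows are near-identical copies of one another. Genes of the subtelomeric Y' elements, also near-identical copies, were also low. YPR204W, a helicase-type row, had 15.9 and 17.0 RPKM of footprints and 144 and 121 RPKM of mRNA (-3.01 ± 0.09). YLL066C, YHR219W, YLL067C, YBL113C and YML133C lay between -3.0 and -2.91. HKR1, a signalling mucin of the cell surface (5409 nt), also lay near this level, with 4.36 and 4.09 RPKM of footprints and 32.2 and 28.2 RPKM of mRNA (-2.83 ± 0.08). These rows were picked with the same filter as GCN4, after the values were seen.

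Footprint reads were concentrated on fewer genes than RNA reads. Over the 5906 nuclear rows without transposons, the 10 most abundant genes of each library took 18.5 and 18.3% of footprints and 14.5 and 14.6% of RNA reads. The top 100 took 46.2 and 45.8% of footprints and 38.0 and 38.2% of RNA reads. The top 124 and 126 genes held 50% of the footprints, and 212 genes in each library held 50% of the RNA reads. Of all reads outside the transposon rows, glycolysis and fermentation genes took 15.4 and 15.3% of footprints and 10.8 and 10.9% of RNA, and large-subunit ribosomal proteins 12.4 and 12.6% of footprints and 8.99 and 9.09% of RNA. Transcription factors took 0.168 and 0.169% of footprints and 0.351 and 0.339% of RNA, and protein kinases 0.260 and 0.258% of footprints and 0.526 and 0.521% of RNA. In each of these comparisons the footprint and RNA libraries did not overlap.

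Closely similar ratios were found in the 4 libraries of targeted cells, which none of the values above used. Of 5618 genes tested there, 1957 (34.8%) were called higher and 2042 (36.3%) lower, 369 (6.57%) and 884 (15.7%) of them by at least 2-fold. Among the 2066 genes called higher in control cells and tested in both, 2060 had the same sign in targeted cells and 1838 were called. Among the 2168 called lower, 2162 had the same sign and 1945 were called, and 0 genes were called in opposite directions. Over 5610 genes the log2 ratios correlated with r of 0.978 across genes, and the rank correlation with CDS length was -0.542 in targeted cells and -0.537 in control cells. In targeted cells ANB1 was at 2.97, HAC1 at -5.98, YOR302W at 1.6 and CPA1 at -1.69, against 3.05, -5.88, 1.23 and -1.37 in control cells, while GCN4 was at -2.48 in targeted cells and -3.15 in control cells. Differences between the cells were not tested here.

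The authors' deposited table gives the same quantity as translational efficiency on another scale, with a median over all rows of 1.92 and 1.83 in the control replicates. In the authors' deposited table GCN4 is at 0.203 and 0.243, HAC1 at 0.0303 and 0.0376, CPA1 at 0.799 and 0.725, and RPL41A at 4.66 and 5.93. The first 3 lie below the deposited medians in both replicates and RPL41A above them.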

How the data were processed

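One table with a column per library was used, and the 4 control libraries entered the fits. Counts were deposited as whole numbers of reads for each gene row. The deposited RPKM values and the deposited ratio were made by the authors. The ratio equals footprint RPKM plus 0.01 over RNA RPKM plus 0.01, within 1 percent for 99.77% of values of control replicate 1. Per the submitters' processing notes, cutadapt and STAR were used with build R64 (no versions listed). How reads were counted, by which strand, and how multiply mapping reads were treated is not stated there. One label names polyA RNA where the protocol names rRNA depletion.

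The test was edgeR's two-sided quasi-likelihood test (version 4.0.16, R 4.3.3) with TMM scaling, filterByExpr and Benjamini-Hochberg adjustment over all genes tested, threshold 0.05. SE is the log2 ratio over the square root of F. Normalised RPKM divides counts by CDS length and TMM-scaled library size. Log2 ratios per replicate add a prior count of 2. Correlations across genes are descriptions. For mean normalised RPKM, n is 2 per assay. Intervals of summed counts are 95% binomial (Clopper-Pearson) and cover counting error only. Alternatives were DESeq2 1.42.0, limma-voom 3.58.1, other scalings and filters, the replicate block and leaving out each library.

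Per the labels' protocols RNA was taken from an aliquot of the lysate, so equal numbers pair a footprint with an RNA library. Within pairs, deviations from the assay mean correlated across genes with r of 0.284. With the replicate number as a block 2193 genes were higher and 2295 lower, and all 4258 calls made without it were retained. Simulated counts (5634 genes) returned 64 of 67 genes changed 1.5-fold, 67 of 67 changed 2-fold and 66 of 66 changed 4-fold, with 10 of 5434 unchanged genes called. The 200 changed genes were drawn only from those with ample expected reads, and every gene had the same dispersion. Far more genes were called in the data, so these rates do not carry over to it or to genes with few reads.

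Members, lists and tests were chosen with earlier results of these data known. Genes were named by rule: the 12 largest and 12 smallest ratios among called genes whose mean was at least 10 CPM (transposon rows left out), the 2 highest and 2 lowest of each list, and 12 fixed genes. The longest, shortest, long but high and Y' rows, TEF1, TEF2, PMP1, HYP2, YEF3, PDC1, PPR1, HOL1, LEU4, MET17 and YOR302W were named outside it. Locus tags were looked up in RefSeq's R64 gene table (6013 of 6016 found, 6012 with equal coordinates). Sequence features were not analysed here.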

Additional observations from a re-analysis of the deposited data

How the results depend on the processing

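With library size as the only scaling, 4274 genes were called higher and 607 lower, 2656 by at least 2-fold above and 356 by at least 2-fold below. OAZ1 was then at 0.61 and ASH1 at 0.66, and list medians changed sign for transcription factors (0.35), protein kinases (0.50), cyclins (0.77), meiosis (0.30), autophagy (0.60) and genes with upstream frames (0.48). That scaling moves all genes together, so these follow from its construction. A filter of 10 CPM in 2 libraries tested 4430 genes, moved the median of the genes by -0.13, left 171 genes at least 2-fold above and 549 below, and put the rank correlation with CDS length at -0.7145 and with mRNA level at 0.4227. PMA1 was then at -0.0371, plasma membrane transporters at a median of -0.0371 and DNA replication at -0.11. The median of that list was also -0.0135 without overlapping rows and lay between -0.0366 and 0.0755 when single libraries were omitted. The rank correlation with length was -0.3835 with no filter, -0.749 with at least 100 reads in each library (0.4334 with mRNA level), -0.4997 without transposon rows (0.532) and -0.5284 without overlap with another row (0.5355). Settings added after seeing the data gave 0.5455 with level without overlapping rows and -0.5899 with length without uncharacterized rows. The rank correlation kept its sign in all of these settings.

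Leaving out 1 library gave 1890 to 1945 genes higher, 1958 to 2021 lower, 309 to 338 at least 2-fold above and 804 to 871 below, the rank correlation with length from -0.5522 to -0.4758, and that with level from 0.4583 to 0.488 (only a footprint library can be left out there). EST3 lost its call in all 4. DESeq2 called 1824 genes higher and 1852 lower, limma-voom 2072 and 2151. With the replicate number as a block PMA1 (0.09) and OAZ1 were also called, with edgeR adjusted p of 0.00197 and 0.0458. Depth limits the genes with few footprints, where 1 to 3 reads set the ratio. Sequence features were not run.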
